A study of Mus musculus with 2 samples.

Results

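The cells described here are retinal neurogenic cells of the mouse eyecup that expressed *Atoh7*, carried at most 1 UMI of a pair of mitotic genes and at most 1 UMI of a pair of ganglion cell factors. They were chosen by UMI (unique molecular identifier) counts. A member had at least 3 *Atoh7* UMIs, fewer than 2 UMIs of *Top2a* and *Mki67* together, and fewer than 2 UMIs of *Isl1* and *Pou4f2* together. Cells with at least 2 *Otx2* and 1 *Crx* UMIs were left out. Of 17458 kept cells, out of 22987 deposited, 1308 met the rule. They were 463 of 7331 kept cells in the control library and 845 of 10127 in the DKO library.

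Both libraries were made from eyecups of 1 embryo each at E13.5, with retina, lens and blood, by droplet-based 3′ single-cell RNA-seq. The DKO embryo was Six3F/F;Six6-/-;a-Cre, so *Six6* was absent from the germline and the floxed *Six3* alleles were exposed to Cre. The control was Six3+/-;Six6+/-, a littermate with 1 null allele of each gene whose genotype lists no Cre, and both embryos therefore carried *Six6* null alleles. The α-Cre transgene acts in the peripheral retina and spares its centre, and the counts list no Cre feature, so DKO members can include cells that kept *Six3*. There were no replicates: library, embryo and genotype cannot be told apart, no test was made, and parentheses give 95% intervals for the error of counting alone.

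*Atoh7* encodes a proneural bHLH factor that is switched on as retinal progenitors enter neurogenesis, most of them in or just before their last cell cycle. Cells that have expressed it go on to form retinal ganglion cells, and also cones, horizontal cells and amacrine cells. Notch signalling, through the HES repressors, keeps neighbours as progenitors, and loss of cyclin D1 with gain of CDK inhibitors accompanies exit from the cycle. *Six3* and *Six6* are related homeobox genes of the early eye field.

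Members had a median of 5587 UMIs and 2303 genes per cell in control and of 4967 and 2151 in DKO. They summed to 2692911 and 4432550 UMIs. Levels are given as UMIs of a gene summed over the members of a library, per 1000000 UMIs of those cells (CPM), and ratios as log2 of DKO over control. The 2 libraries shared 22 barcodes, 0 of them among members. Mitochondrial transcripts made up 6.18% of members' UMIs in control and 5.20% in DKO, and ribosomal protein transcripts 18.6% and 16.2%.

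The 7 genes that set members apart among kept cells are given as a description. The filter on kept cells also used globin genes and the crystallins *Cryaa* and *Cryab*. *Atoh7* (chr10:63099651-63101279, plus strand) had 3019 CPM (2954 to 3085) in control members and 1881 CPM (1841 to 1922) in DKO members. Per cell the median was 16 *Atoh7* UMIs in control, with quartiles of 7 and 24.5, and 7 in DKO, with quartiles of 4 and 13. The ranges overlapped, from 3 to 58 UMIs in control and from 3 to 53 in DKO. *Top2a* was at 24.5 and 17.4 CPM, *Mki67* at 17.5 and 11.3 CPM, *Isl1* at 29 and 25 CPM, and *Pou4f2* at 10.4 and 11.7 CPM, control before DKO. *Otx2* was at 102 CPM in control and 53.9 CPM in DKO, and *Crx* rested on 11 and 5 UMIs.

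Near the thresholds the cells were graded. The 27 control and 123 DKO members with exactly 3 *Atoh7* UMIs had 522 and 182 CPM of *Gadd45a*. The 48 control and 151 DKO cells just outside, with 2 *Atoh7* UMIs, had 271 and 151 CPM. The 113 and 127 members with 1 *Top2a* or *Mki67* UMI had summed S phase gene levels of 2796 and 2029 CPM, against 3930 and 2581 CPM in the 49 and 58 cells just past that limit. At the ganglion limit, the early neuron genes summed to 11577 and 21630 CPM in the 106 and 163 members with 1 *Isl1* or *Pou4f2* UMI. They summed to 14305 and 23794 CPM in the 67 and 103 cells just past it.

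The markers that check the label were present, although their levels did not all move together. *Gadd45a*, a growth arrest and DNA damage gene that marks neurogenic retinal cells, had 876 CPM (841 to 912) in control members and 446 CPM (427 to 466) in DKO members, a ratio of -0.97 (-1.06 to -0.89). In the cycling *Atoh7* cells of the same libraries it had 655 and 446 CPM, and in all other kept cells 182 and 88.5 CPM. *Mfng*, a fringe glycosyltransferase of the Notch pathway, had 143 CPM (129 to 158) and 155 CPM (143 to 167), and its ratio of 0.11 (-0.07 to 0.29) was not distinguishable from 0 at this depth. *Srrm4*, a splicing factor of neuronal microexons, had 436 CPM (411 to 462) in control and 536 CPM (514 to 558) in DKO. *Bhlhe22*, a bHLH repressor of amacrine and bipolar development, was the marker with the largest ratio, at 140 CPM (126 to 154) and 349 CPM (332 to 367), a log2 ratio of 1.32 (1.16 to 1.49).

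By the sums of the cycle-related lists the members lay between the cycling *Atoh7* cells and the ganglion side. The rule set these groups apart by *Top2a* and *Mki67* and by *Isl1* and *Pou4f2*, so this order follows in part from the rule and is a description. S phase genes summed to 2328 CPM in control members, against 5354 CPM in cycling *Atoh7* cells and 943 CPM in *Atoh7* cells with *Isl1* or *Pou4f2*, the ganglion side. In DKO members they summed to 1116 CPM, against 4468 and 844 CPM. G2 and mitosis genes summed to 2589 CPM in control members and 1828 CPM in DKO members, against 12129 and 12284 CPM in cycling cells. By these lists the control members retained more replication transcripts than the DKO members did.

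*Six6* (chr12:72939892-72944899, plus strand) was lower in DKO members, at 60.5 CPM (53.4 to 68.2) against 221 CPM (204 to 239) in control, a log2 ratio of -1.87 (-2.08 to -1.66). *Six3* (chr17:85613608-85629302, plus strand) had 289 CPM (269 to 310) in control and 277 CPM (262 to 293) in DKO, and its ratio of -0.06 (-0.19 to 0.07) was not distinguishable from 0. The control carried 1 null allele of each gene. Per the study's methods and text, Cre removes the first exon of *Six3*, and a selection cassette replaces the homeodomain part of *Six6*, while the counted 3′ ends of both genes remain and carry fewer transcripts in mutant retinas. These UMIs therefore do not by themselves tell deleted from intact alleles. Among DKO members 59.8% had at least 1 *Six3* UMI, against 71.7% of control members. After thinning every cell to 2000 UMIs the shares were 36.6% (33.2 to 39.96) and 39.9% (35.2 to 44.7), far above the 5.88% and 3.71% in hemoglobin-rich cells. Those cells serve as a rough guide to free RNA, a use that was not tested. Hemoglobin made up 76.7% of their UMIs in control and 73.7% in DKO, so other transcripts are diluted in them.

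Members were a larger share of the *Atoh7* cells in the DKO library, and cells on the ganglion side a smaller one. Of kept cells, 29.7% (28.7 to 30.8) in control and 20.2% (19.4 to 21.0) in DKO had at least 3 *Atoh7* UMIs. Of these, 21.2% (19.5 to 23.0) were members in control and 41.4% (39.2 to 43.6) in DKO. Cycling cells, with at least 2 *Top2a* and *Mki67* UMIs and past no other limit, were 30.2% (28.3 to 32.2) and 25.9% (24.0 to 27.9). Ganglion-side cells were 38.5% (36.5 to 40.6) and 27.4% (25.5 to 29.4). The limit between members and the ganglion side rests on *Isl1* and *Pou4f2*, which were themselves lower in DKO. Over both classes together *Isl1* had 715 CPM in control and 374 CPM in DKO, and *Pou4f2* 262 and 132 CPM. How far this moved DKO cells into the members was not tested. Cells on the photoreceptor side, with *Otx2* and *Crx*, were 1.93% (1.39 to 2.60) and 1.62% (1.11 to 2.26).

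**Figure D1:**
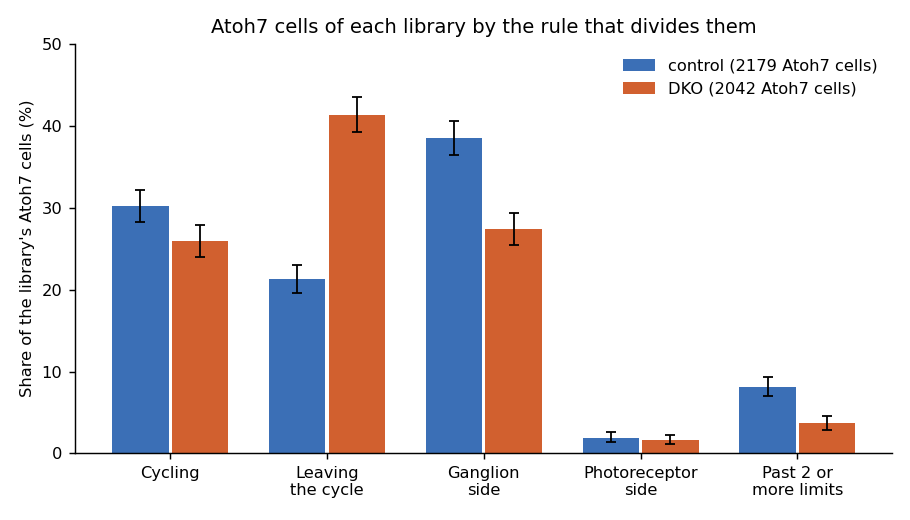
Share of each library's *Atoh7* cells (vertical axis, percent) in the classes that the UMI limits define, control in blue and DKO in orange, with exact binomial 95% intervals. Members, labelled as leaving the cycle, make up 21.2% of the control and 41.4% of the DKO *Atoh7* cells, and the intervals of the 2 libraries do not overlap.

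Among *Atoh7* cells that were not cycling, members were 34.4% (31.8 to 37.0) in control and 58.7% (56.1 to 61.2) in DKO, and ganglion-side cells 62.4% (59.7 to 65.0) and 38.9% (36.4 to 41.5). The DKO library had fewer UMIs per cell. With every kept cell thinned to 4000 UMIs, members were 43.0% (39.99 to 46.0) and 63.4% (60.3 to 66.4) of the non-cycling *Atoh7* cells. Ganglion-side cells were then 54.4% (51.3 to 57.4) and 35.4% (32.4 to 38.5). As a share of all kept cells the members stood at 6.32% (5.77 to 6.90) in control and 8.34% (7.81 to 8.90) in DKO. Thinned, these shares were 6.995% (6.39 to 7.64) and 7.55% (6.98 to 8.14), whose intervals overlapped.

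Over all genes with at least 20 CPM in either library and 100 UMIs over both, 6654 were compared in the members, those 7 genes left out. In DKO, 326 of them (4.9%) were at least 2-fold higher and 127 (1.91%) at least 2-fold lower. The median log2 ratio of all of them was 0.01. The same cut in cycling *Atoh7* cells gave 83 (1.28%) higher and 35 (0.539%) lower of 6497 genes. On the ganglion side it gave 75 (1.16%) higher and 35 (0.54%) lower of 6481 genes. These counts describe 2 libraries and have no replicate check.

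**Figure D2:**
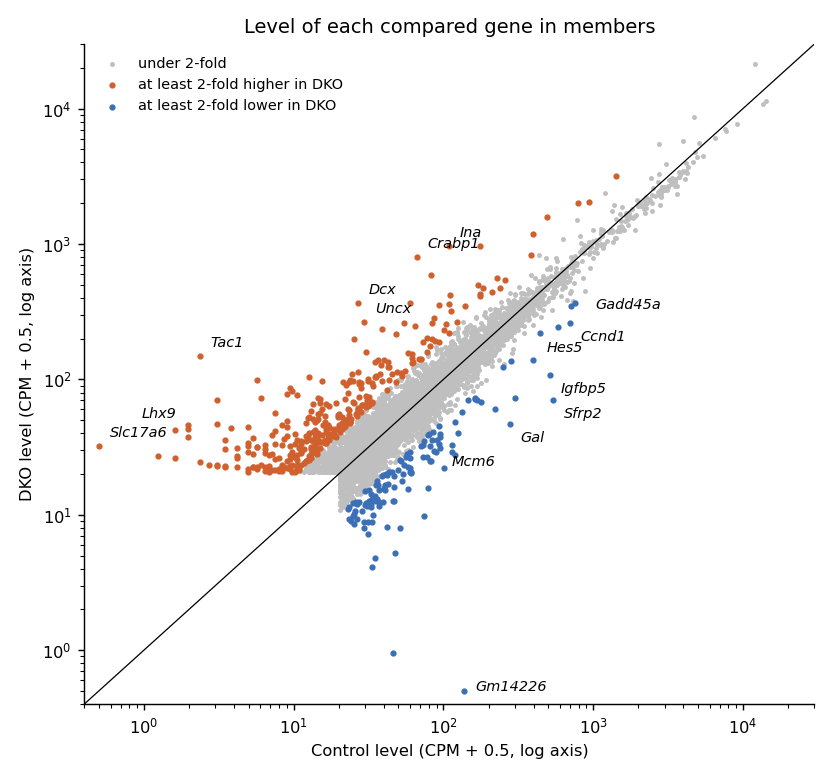
Level of each of the 6654 compared genes in control members (horizontal axis) and DKO members (vertical axis), in CPM with 0.5 added, on log axes, with the line of equal levels. The 326 genes at least 2-fold higher in DKO (orange) and the 127 at least 2-fold lower (blue) lie off the line, with *Dcx*, *Ina* and *Tac1* above it and *Sfrp2*, *Igfbp5* and *Gal* below it.

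Early neuron genes formed the largest group that was higher in DKO members. All 29 genes of the list were compared, and 20 were at least 2-fold higher and 0 lower, against 4.9% and 1.91% of all genes. Their median ratio was 1.53, and 28 of the 29 intervals lay above 0. *Dcx* (chrX:143855842-143933311, minus strand), which encodes the doublecortin of migrating neurons, had 26.4 CPM (20.6 to 33.3) in control and 368 CPM (350 to 386) in DKO. That was a log2 ratio of 3.80 (3.46 to 4.17). *Ina*, the internexin of neuronal intermediate filaments, had 109 CPM (96.7 to 122) and 960 CPM (931 to 989), a ratio of 3.14 (2.97 to 3.32). *Gap43*, a growth cone protein, had 59.8 CPM (50.9 to 69.8) and 364 CPM (346 to 382). *Rtn1*, a reticulon of neuronal endoplasmic reticulum, had 176 CPM (160 to 192) and 959 CPM (930 to 988). *St18*, a zinc finger factor related to *Myt1*, stood at 8.54 CPM (5.41 to 12.8) and 43.8 CPM (37.8 to 50.4), and *Mapt*, which encodes tau, at 14.5 CPM (10.3 to 19.8) and 71.3 CPM (63.6 to 79.6).

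The general neuronal factors in the same list differed less. *Sox11* had a ratio of 0.10 (0.05 to 0.15), *Stmn1* of 0.31 (0.24 to 0.39) and *Sox4* of 0.37 (0.32 to 0.43). *Tubb3*, the neuronal beta-tubulin, lay between, at 936 CPM (900 to 973) and 2028 CPM (1986 to 2070).

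Early neuron transcripts were spread widely over the members of both libraries. With each member thinned to 2000 UMIs, which left out 34 control and 27 DKO members as shallower, control members held a median of 17 UMIs of the 29 genes, with quartiles of 11 and 25. DKO members held a median of 31, with quartiles of 20 and 49. Above 17 UMIs lay 49.9% (45.1 to 54.7) of control and 80.8% (77.9 to 83.5) of DKO members. The cut is a point on a range and not a border between cell types, since 174 control and 196 DKO members lay within 5 UMIs of it. The 10th and 90th percentiles were 7 and 34 UMIs in control and 13 and 68 UMIs in DKO.

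**Figure D3:**
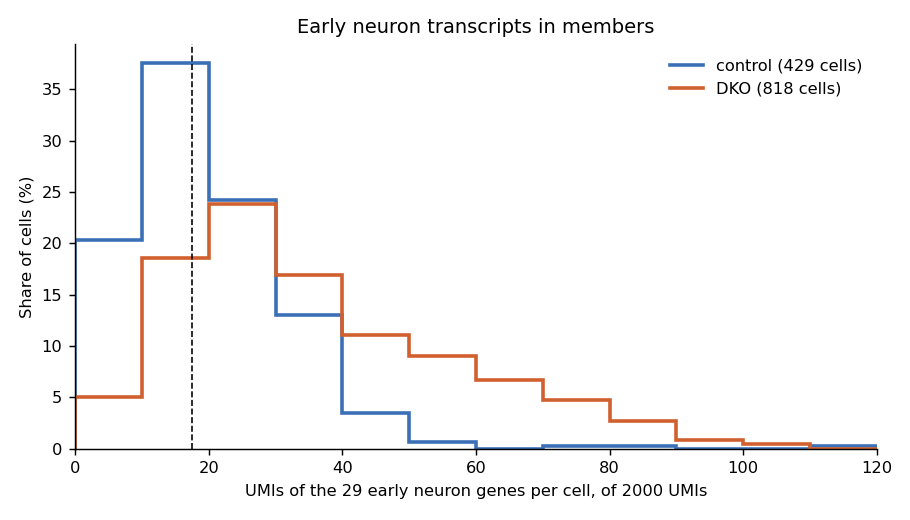
Share of members (vertical axis, percent) by their number of UMIs from the 29 early neuron genes among 2000 UMIs (horizontal axis), for 429 control members in blue and 818 DKO members in orange, with a dashed line just above 17 UMIs. The control curve lies mostly under 40 UMIs and the DKO curve reaches past 80, with a wide overlap between them.

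A pair of further comparisons moved the limits around the members. In the first, taken after the data had been seen, the ganglion-side cells were added to the members. The limit between these classes used *Isl1* and *Pou4f2*, both lower in DKO over the classes together. The early neuron median then moved from 1.53 to 0.16, and 1 of the 29 genes was at least 2-fold higher. In the second, members were compared within the lower and the upper range of early neuron UMIs. This split used the summed UMIs of the same 29 genes, so smaller ratios of this list within a range follow from the split itself. The median was 0.44 in the lower range, with 7 genes higher and 2 lower, and 0.95 in the upper range, with 14 higher and 0 lower. In the ganglion-side cells alone the median ratio was 0.22, and in the cycling *Atoh7* cells it was 0.78. *Ina* had a ratio of 0.89 with the ganglion side added, *Dcx* of 0.93 and *Gap43* of 0.06, each under 2-fold. List counts in these added settings, here and below, have no share of all genes of the same setting beside them. They are a description, and the counts over all genes in each setting come with the alternatives in the closing sections.

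Proneural bHLH factors and their partners split into higher and lower genes. Of 12 compared, 5 were at least 2-fold higher and 2 lower, beside 4.9% and 1.91% of all genes, with a median ratio of 0.10. *Nhlh2*, a bHLH factor of newly formed neurons, had 24.9 CPM (19.3 to 31.6) in control and 198 CPM (185 to 212) in DKO. Its relative *Nhlh1* had 10.0 CPM (6.61 to 14.6) and 75.6 CPM (67.7 to 84.1). *Insm1*, a zinc finger factor of neuronal precursors, had 111 CPM (99.2 to 125) and 320 CPM (304 to 337). *Neurog2*, a proneural factor that precedes *Atoh7* in many progenitors, had 72.8 CPM (63.0 to 83.7) and 187 CPM (175 to 200), a ratio of 1.36 (1.14 to 1.59). *Bhlhe22* was the remaining gene past 2-fold on the higher side. The share of members with a *Neurog2* UMI at 2000 UMIs was 11.9% (8.98 to 15.3) in control and 25.8% (22.8 to 28.9) in DKO, against 0.33% and 1.66% in hemoglobin-rich cells.

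The inhibitors of bHLH factors were on the lower side. *Id1* had 299 CPM (278 to 320) in control and 72.2 CPM (64.5 to 80.6) in DKO, a ratio of -2.05 (-2.24 to -1.86), and *Id3* had a ratio of -1.21 (-1.42 to -0.99). *Hes6*, which opposes HES1 and is high in neurogenic cells, had 611 CPM (582 to 641) and 415 CPM (397 to 435). *Neurod1*, a neurogenic factor of photoreceptor and amacrine precursors, had 384 CPM (361 to 408) and 591 CPM (569 to 614), a ratio of 0.62 (0.52 to 0.73). *Neurod4* had 75.8 CPM (65.7 to 86.9) and 56.6 CPM (49.8 to 64.1). With the ganglion side added *Neurog2* stood at 2.04, *Insm1* at 1.18 and *Nhlh2* at 0.77, so *Nhlh2* no longer passed 2-fold.

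Genes of the Notch pathway differed in both directions, with the larger ratios on the lower side in DKO members. Of 14 compared, 6 were at least 2-fold lower and 0 higher, beside 1.91% and 4.9% of all genes, with a median ratio of -0.84. The intervals of 9 lay below 0 and those of 2 above, *Numbl* at 0.75 (0.41 to 1.10) and the ligand gene *Dll3* at 0.55 (0.18 to 0.93). Among the targets, *Hes5* had 579 CPM (550 to 608) in control and 245 CPM (230 to 260) in DKO, a ratio of -1.24 (-1.36 to -1.13). *Hes1* had 35.3 CPM (28.5 to 43.1) and 12.6 CPM (9.54 to 16.4), *Hey1* 39.7 CPM (32.6 to 48.0) and 15.3 CPM (11.9 to 19.4), and *Nrarp*, a feedback inhibitor, 30.5 CPM (24.2 to 37.8) and 11.3 CPM (8.37 to 14.9). The ligand *Dll1* had 85.0 CPM (74.4 to 96.8) and 40.6 CPM (34.9 to 47.0), and the glycosyltransferase gene *Lfng* 29 CPM (22.9 to 36.1) and 8.35 CPM (5.88 to 11.5). The receptor *Notch1* had a ratio of -0.96 (-1.12 to -0.80), and the ligand regulator *Mib1* one of 0.09 (-0.16 to 0.36).

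*Hes5* was lower by a like ratio in other *Atoh7* cells, at -1.08 in cycling cells and -1.05 on the ganglion side. The list as a whole had medians of -0.11 and -0.27 there, and of -0.33 with the ganglion side added to the members. In that last setting 1 of the 14 genes passed 2-fold, *Hey1* at -1.16 (-1.43 to -0.89). *Hes5* was then under 2-fold, at -0.62 (-0.72 to -0.52). In the lower range of early neuron UMIs the list's median was -0.18, with 1 gene lower and 1 higher. In the upper range it was -0.76, with 6 lower. The *Hes5* promoter is shown because it holds the letters GTGGGAA, the core bound by the Notch effector RBPJ, on both strands. The window covers the 250 bases before the RefSeq start, chr4:154960673-154960922, plus strand, GRCm38.p6, and capitals mark the match and its reverse complement TTCCCAC.
Hes5: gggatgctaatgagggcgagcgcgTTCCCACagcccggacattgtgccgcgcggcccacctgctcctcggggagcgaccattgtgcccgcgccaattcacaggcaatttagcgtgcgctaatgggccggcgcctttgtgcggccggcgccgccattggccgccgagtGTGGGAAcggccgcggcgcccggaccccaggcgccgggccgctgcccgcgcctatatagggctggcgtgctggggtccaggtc
Of all 32851 RefSeq windows of up to that length, 5.42% hold this motif on either strand. Counted by gene symbol, 6.18% of 27025 do. Among the 10 compared Notch pathway genes with a window, 2 do, *Hes5* and *Lfng*. A match describes the letters and not a bound site.

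Genes of S phase were lower in DKO members as a group. Of 26 compared, 16 were at least 2-fold lower and 0 higher, beside 1.91% and 4.9% of all genes, the median ratio was -1.22, and 25 of 26 intervals lay below 0. *Clspn*, which encodes the checkpoint adaptor claspin, had 41.2 CPM (33.9 to 49.6) in control and 7.67 CPM (5.31 to 10.7) in DKO. The replicative helicase subunit gene *Mcm6* had 95.1 CPM (83.8 to 107) and 30.7 CPM (25.7 to 36.3), a ratio of -1.63 (-1.94 to -1.33). *Mcm5* had 60.2 CPM (51.3 to 70.2) and 19.9 CPM (15.9 to 24.5), and *Dtl*, a substrate receptor of the CUL4 ubiquitin ligase, 46.0 CPM (38.3 to 54.9) and 12.2 CPM (9.15 to 15.9). *Ung*, a uracil glycosylase, had a ratio of -1.96 (-2.59 to -1.36), and the flap endonuclease gene *Fen1* one of -1.73 (-2.26 to -1.23). *Pcna*, the polymerase clamp, had 53.8 CPM (45.4 to 63.4) and 22.8 CPM (18.6 to 27.7).

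In cycling *Atoh7* cells the S phase median was -0.23, and on the ganglion side -0.11. It was -0.49 with the ganglion side added to the members, with 3 genes at least 2-fold lower. Within the lower and the upper range of early neuron UMIs the medians were -0.58 and -0.65, with 4 and 6 genes lower. The S phase difference was thus smaller, and of the same sign, in every one of these settings.

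The E2F motif of replication genes is common in this list. Letters TTGGCGC or TTCCCGC, on either strand, occur in 10 of the 19 compared S phase genes that have a RefSeq window, and in 5.62% of all 32851 windows of up to 250 bases before a start. They occur in 3 of 21 G2 and mitosis genes, 3 of 19 early neuron genes and 3 of 10 Notch pathway genes with a window. Counted by gene symbol and not by window, 6.45% of 27025 hold them. The windows of *Mcm6* (chr1:128359706-128359955, minus strand), *Mcm5* (chr8:75109259-75109508, plus strand) and *Dtl* (chr1:191575545-191575794, minus strand), GRCm38.p6 in RefSeq, are shown as examples of genes that were lower together. Capitals mark the motif or its reverse complement.
Mcm6: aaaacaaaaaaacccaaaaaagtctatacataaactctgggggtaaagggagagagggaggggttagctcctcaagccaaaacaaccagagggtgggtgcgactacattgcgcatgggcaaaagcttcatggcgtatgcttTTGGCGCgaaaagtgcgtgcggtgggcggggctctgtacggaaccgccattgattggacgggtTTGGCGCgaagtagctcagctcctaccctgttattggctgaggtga
Mcm5: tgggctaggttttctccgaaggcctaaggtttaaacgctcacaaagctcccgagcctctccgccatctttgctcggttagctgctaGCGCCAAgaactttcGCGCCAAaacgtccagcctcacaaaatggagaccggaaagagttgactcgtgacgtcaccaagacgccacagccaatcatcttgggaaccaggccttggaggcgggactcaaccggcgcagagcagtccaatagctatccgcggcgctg
Dtl: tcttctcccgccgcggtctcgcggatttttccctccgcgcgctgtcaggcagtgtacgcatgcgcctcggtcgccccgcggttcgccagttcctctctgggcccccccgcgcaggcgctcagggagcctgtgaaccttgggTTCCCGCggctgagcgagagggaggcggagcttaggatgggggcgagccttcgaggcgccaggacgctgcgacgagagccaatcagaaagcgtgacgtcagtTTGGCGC
Each of these windows holds 2 matches. The windows of the S phase genes *Hells* (175 bases) and *Cdca7* (190 bases), not printed, hold 0 and 1. The motif was chosen after the list's values were known, and the letters say nothing about which factor was bound in these cells.

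Mitotic genes and regulators of exit differed less than the S phase genes. Of 23 compared G2 and mitosis genes, 3 were at least 2-fold lower and 0 higher, beside 1.91% and 4.9% of all genes. The 3 were *Tpx2*, *Cenpa* and *Cenpe*, and the median ratio was -0.72. The rule itself limits 2 mitotic genes, so these levels are close to what it fixes. *Cenpa*, the centromeric histone, had 83.9 CPM (73.3 to 95.6) in control and 35.4 CPM (30.1 to 41.4) in DKO. With the ganglion side added the list's median was -0.15 and 0 genes passed 2-fold. In the lower range of early neuron UMIs the median was 0.01, and in the upper range it was -1.07.

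Among 11 compared genes of cell cycle exit, 1 was at least 2-fold lower in DKO members and 0 higher, beside 1.91% and 4.9% of all genes. The gene past 2-fold was *Ccnd1*. This gene of the G1 cyclin D1 had 696 CPM (664 to 728) in control and 260 CPM (246 to 276) in DKO members, a ratio of -1.42 (-1.52 to -1.31). In the cycling *Atoh7* cells it had 1055 and 1219 CPM, a ratio of 0.21 (0.16 to 0.26). Its ratio was -0.59 (-0.69 to -0.50) with the ganglion side added and -0.72 (-0.86 to -0.59) in the lower range of early neuron UMIs. In the upper range it was -0.028 (-0.27 to 0.22), so *Ccnd1* passed 2-fold in none of these. *Gadd45g* was the 1 exit gene past 2-fold with the ganglion side added, on the higher side at 1.53 (1.33 to 1.73). *Cdkn1c*, which encodes the CDK inhibitor p57, had 221 CPM (204 to 240) and 284 CPM (268 to 300), and *Cdkn1b*, which encodes p27, 78.7 CPM (68.5 to 90.1) and 101 CPM (92.1 to 111). *Cdkn2d* had 19.3 CPM (14.4 to 25.3) and 38.6 CPM (33.0 to 44.8), a ratio just under the cut. *Btg2*, an antiproliferative gene of neurogenic divisions, had 789 CPM (756 to 823) and 635 CPM (612 to 659). These 3 inhibitor genes were on the higher side and *Ccnd1* on the lower side in the members as a whole.

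Transcripts of naïve retinal progenitor cells were fewer in DKO members. Of 16 compared progenitor factors, 9 were at least 2-fold lower and 0 higher, beside 1.91% and 4.9% of all genes, with a median of -1.16. The list holds *Six3* and *Six6*, which the genotypes alter, and *Six6* is among the 9. *Sfrp2* (chr3:83766321-83774316, plus strand), a secreted Wnt antagonist, had 536 CPM (509 to 565) in control and 70.2 CPM (62.6 to 78.4) in DKO, a ratio of -2.93 (-3.12 to -2.76). The antisense gene *Gm26771* (chr3:83773853-83789956, minus strand) overlaps its 3′ end and had a ratio of -3.18 (-4.05 to -2.40). *Fgf15* had 100 CPM (88.7 to 113) and 21.7 CPM (17.5 to 26.4), and *Sox2* 132 CPM (119 to 147) and 57.3 CPM (50.5 to 64.8). *Fzd5*, a Wnt receptor of the eye field, had 59.0 CPM (50.2 to 69.0) and 20.1 CPM (16.1 to 24.7). *Pax6* differed little, at 483 CPM (457 to 510) and 463 CPM (443 to 483), and *Lhx2* was on the higher side, at 138 CPM (124 to 153) and 222 CPM (209 to 237).

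*Sfrp2* was also lower in the other *Atoh7* cells, with ratios of -1.19 in cycling cells and -1.22 on the ganglion side, and it kept a ratio of -1.99 with the ganglion side added to the members. It was found at 2000 UMIs in 34.7% (30.2 to 39.4) of control and 8.19% (6.404 to 10.3) of DKO members. The share in hemoglobin-rich cells was 10.1% in control and 5.43% in DKO, so part of these shares may be free RNA, which was not tested. The progenitor list had a median of -0.33 with the ganglion side added.

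**Figure D4:**
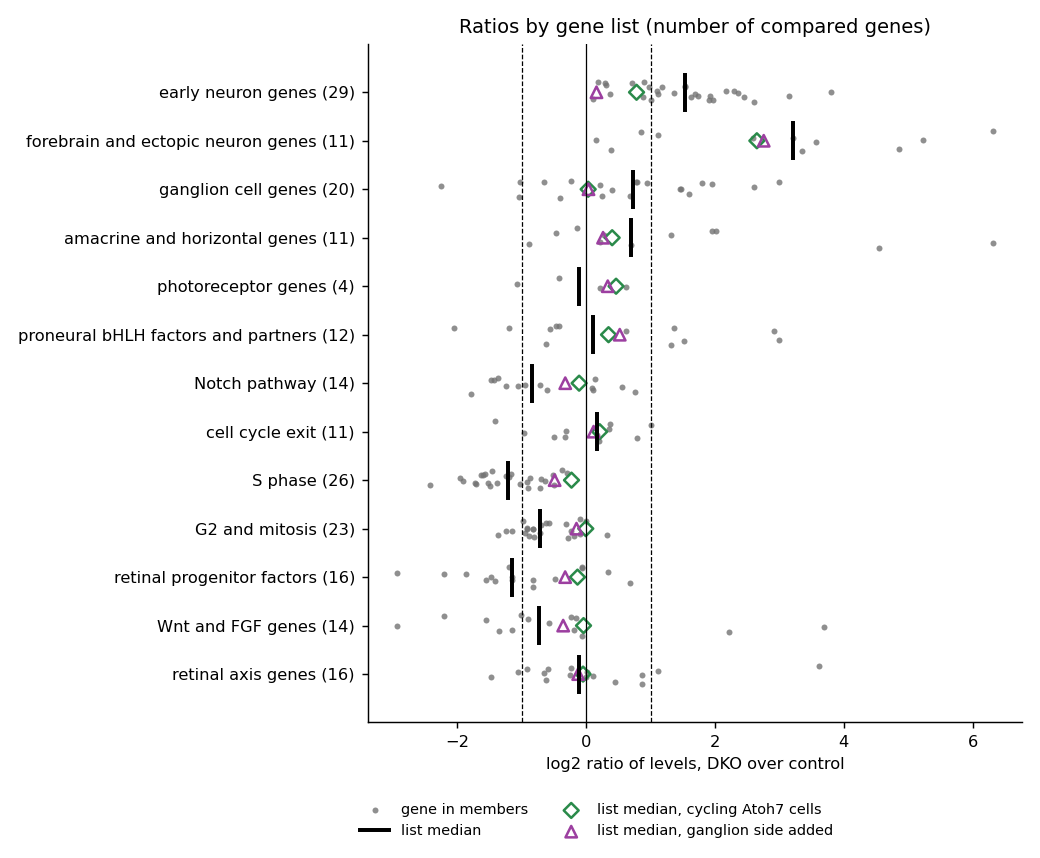
Log2 ratio of DKO over control (horizontal axis) for the compared genes of 13 lists (rows, number of genes in brackets), grey points for genes in members and black bars for list medians, with dashed lines at 2-fold. Green diamonds give the medians in cycling *Atoh7* cells and purple triangles those with the ganglion side added. The early neuron median lies at 1.53 for the members and at 0.16 with the ganglion side added, while the forebrain and ectopic neuron genes stay at 3.20 and 2.75.

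Of 14 compared genes of Wnt and FGF signalling, 6 were at least 2-fold lower and 2 higher, beside 1.91% and 4.9% of all genes. Their median was -0.74. Among the 6, *Sfrp2*, *Fgf15*, *Fgf9* and *Fzd5* are also lower genes of the progenitor list, so the 2 counts are not separate. Adding the ganglion side gave 2 lower and 2 higher, with a median of -0.36. *Fgf9* had a ratio of -1.16 (-1.48 to -0.84), the Wnt modulator *Dkk3* one of -1.02 (-1.18 to -0.85) and *Tcf7l2*, a transcriptional effector of Wnt signalling, one of -1.36 (-1.95 to -0.78). The higher genes were *Wls*, which carries Wnt proteins to the cell surface, and the receptor gene *Fzd1*. *Wls* rested on 9 UMIs in control, 3.34 CPM (1.53 to 6.34), and had 43.1 CPM (37.2 to 49.7) in DKO. *Fzd1* had 7.06 CPM (4.25 to 11) and 32.7 CPM (27.6 to 38.5). Both also passed 2-fold in cycling cells, with ratios of 5.13 and 1.71, and with the ganglion side added, at 4.79 and 2.76.

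Ganglion cell genes were divided. Of 20 compared, 7 were at least 2-fold higher and 3 lower, beside 4.9% and 1.91% of all genes, with a median of 0.73. Among the 7, *Gap43* is also on the early neuron list and *Nhlh2* on the proneural list. The EBF factors of ganglion cell differentiation were higher, with *Ebf3* at 34.5 CPM (27.9 to 42.3) and 134 CPM (123 to 145) and *Ebf1* at 57.6 CPM (48.9 to 67.4) and 157 CPM (146 to 169). *Onecut2* was just under the cut, at 784 CPM (751 to 818) and 1511 CPM (1475 to 1548). With the ganglion side added the list's median was 0.03, no gene was 2-fold higher, and *Ebf1* had a ratio of -0.43.

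The lower ganglion cell genes were *Igfbp5*, *Dlx1* and *Dlx2*. *Igfbp5* (chr1:72857932-72874884, minus strand), which encodes a binding protein of insulin-like growth factors, had 515 CPM (488 to 543) in control and 107 CPM (98.0 to 117) in DKO, a ratio of -2.26 (-2.42 to -2.11). It was found at 2000 UMIs in 45.0% (40.2 to 49.8) of control and 12.3% (10.2 to 14.8) of DKO members, against 0.74% and 1.36% of hemoglobin-rich cells. *Dlx1* and *Dlx2*, homeobox genes of ganglion cell precursors, had ratios of -1.04 (-1.26 to -0.83) and -1.03 (-1.33 to -0.73). The neuropeptide gene *Gal*, on no list, had 276 CPM (256 to 296) and 46.0 CPM (39.9 to 52.8). *Igfbp5* and *Gal* were on the lower side in cycling cells too, at -1.37 and -1.12, and on the ganglion side, at -1.77 and -0.74.

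Few photoreceptor genes reached the level for comparison. Of 4 compared, 1 was at least 2-fold lower and 0 higher, beside 1.91% and 4.9% of all genes. That gene, *Prdm1*, a repressor that favours photoreceptor over bipolar fate, had 40.8 CPM (33.6 to 49.2) in control and 19.4 CPM (15.5 to 24.0) in DKO. Its ratio was -0.10 (-0.50 to 0.29) with the ganglion side added and 0.60 (-0.14 to 1.33) in the lower range of early neuron UMIs, so the call was lost in both. Cells with *Otx2* and *Crx* had been left out by the rule. Amacrine and horizontal genes had 5 of 11 at least 2-fold higher and 0 lower, beside 4.9% and 1.91% of all genes. The 5 were *Tac1*, *Tfap2c*, *Barhl2*, *Ebf3* and *Bhlhe22*. The homeobox gene *Barhl2* had 9.65 CPM (6.31 to 14.1) and 38.8 CPM (33.2 to 45.1).

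Genes of forebrain and ectopic neurons had the highest median of any list, 3.20. In DKO members 8 of 11 compared were at least 2-fold higher, beside 4.9% of all genes. This list had been drawn up with earlier results of these libraries known, so its direction is not independent. *Tac1* (chr6:7554879-7565834, plus strand), the precursor of substance P, had 1.86 CPM (0.60 to 4.33) in control, from 5 UMIs, and 147 CPM (136 to 159) in DKO, a ratio of 6.31 (5.08 to 7.94). The homeobox gene *Uncx* had 29 CPM (22.9 to 36.1) and 267 CPM (252 to 283), and was found at 2000 UMIs in 4.66% (2.87 to 7.11) of control and 33.5% (30.3 to 36.8) of DKO members, against 0.08% and 2.11% of hemoglobin-rich cells. The Wnt agonist gene *Rspo3* rested on 3 control UMIs and had 41.7 CPM (35.9 to 48.2) in DKO. *Lhx9*, a LIM homeobox gene, rested on 4 control UMIs and had 42.9 CPM (37.0 to 49.4) in DKO. *Lhx5* had 2.97 CPM (1.28 to 5.85) and 35.2 CPM (29.9 to 41.2), and *Dmrta2*, a factor of the dorsal telencephalon, 5.20 CPM (2.84 to 8.72) and 31.1 CPM (26.2 to 36.8).

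UMIs of these genes were found in many DKO members, each gene in a minority of them. After thinning to 2000 UMIs, *Tac1* had a UMI in 9.90% (7.94 to 12.2) of DKO and 0.466% of control members, against 1.21% of DKO hemoglobin-rich cells. *Lhx9*, *Rspo3* and *Lhx5* had one in 6.97%, 5.50% and 6.601% of DKO members, against 0.302%, 0.452% and 0.452% of DKO hemoglobin-rich cells. Without thinning, a UMI of *Tac1*, *Lhx9*, *Rspo3* or *Lhx5* was found in 346 of 845 DKO members, 40.9% (37.6 to 44.3), and in 18 of 463 control members, 3.89% (2.32 to 6.07). UMIs of at least 2 of the 4 genes were found in 108 DKO members and 0 control members. The 346 cells had a median of 5464 UMIs and the other DKO members 4571, so the cells with such a UMI were the deeper ones by their median. They had 1428 CPM of *Ina* against 543 CPM in the other DKO members, 1331 CPM of *Atoh7* against 2372 CPM, and 276 CPM of *Gadd45a* against 598 CPM.

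The 499 DKO members with no UMI of these 4 genes differed from the 445 such control members in other genes. The 4 genes have low counts and the 499 cells were shallower, at a median of 4571 UMIs against 5464. A cell without such a UMI may thus still have expressed them, and how many did was not tested. *Uncx* had 154 CPM in these DKO cells and 26.4 CPM in control, *Dcx* 236 and 23.3 CPM, *Sfrp2* 90.9 and 552 CPM, and *Igfbp5* 164 and 510 CPM. *Six3* was at 279 CPM in DKO and 280 CPM in control. With the ganglion side added, 9 of the 11 forebrain and ectopic neuron genes were at least 2-fold higher and the median was 2.75. In cycling *Atoh7* cells the median was 2.65 and on the ganglion side 2.16.

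Other genes with the highest ratios included some of neuronal membranes and synapses and some on no list. *Slc17a6*, which encodes the vesicular glutamate transporter VGLUT2, had 0 UMIs in control members and 31.8 CPM (26.8 to 37.5) in DKO. Set against a floor of 3 UMIs over the control members, it was at least 4.84 higher on the log2 scale. *Erbb4*, a neuregulin receptor gene, had 2.60 CPM (1.05 to 5.36) and 69.7 CPM (62.2 to 77.9), and *Nrn1*, which encodes neuritin, 5.20 CPM (2.84 to 8.72) and 97.7 CPM (88.7 to 107). *Fam163a*, *Mmd2*, *Rgs4* and *Akap6* had between 2 and 7 control UMIs and ratios of 5.16, 4.93, 4.65 and 4.15. *Tfap2c*, an AP-2 factor of the amacrine and horizontal list, rested on 3 control UMIs, had 25.9 CPM (21.4 to 31.1) in DKO and was higher in DKO cycling *Atoh7* cells, at 76.9 CPM.

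Retinal axis genes were divided, with 2 of 16 at least 2-fold higher and 2 lower, beside 4.9% and 1.91% of all genes. Their median was -0.12. Adding the ganglion side gave 4 higher and 0 lower. *Crabp1*, a retinoic acid binding protein gene, had 65.7 CPM (56.4 to 76.2) in control and 806 CPM (780 to 833) in DKO, a ratio of 3.62 (3.40 to 3.84). Nearly all of that difference lay in the upper range of early neuron UMIs, where *Crabp1* had 79.8 and 1001 CPM, and in the lower range it had 54.9 and 53.4 CPM. *Epha3*, an ephrin receptor gene, had a ratio of 1.11 (0.86 to 1.37). *Tbx2*, a T-box gene of the dorsal retina, had a ratio of -1.48 (-2.04 to -0.92).

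Of 7 compared genes of the ciliary margin and pigment cells, 3 were at least 2-fold higher in DKO (*Wls*, *Rbms1* and *Otx1*) and 1 lower. Over all genes these shares were 4.9% and 1.91%. The lower gene, *Pmel*, had 45.3 CPM (37.6 to 54.1) in control and 12.2 CPM (9.15 to 15.9) in DKO. Its direction was not stable: the ratio was 2.75 with cells thinned to 4000 UMIs, 0.034 in the upper range of early neuron UMIs and -0.31 (-0.72 to 0.10) with the ganglion side added. The p53 response list had a median of -0.24, and 1 of its 10 genes was at least 2-fold lower, beside 1.91% of all genes. That gene, *Sesn2*, had 50.5 CPM (42.4 to 59.7) and 7.44 CPM (5.12 to 10.5). Among 10 stress genes, *Fos* and *Fosb* were at least 2-fold lower, at -1.65 and -1.06, beside 1.91% of all genes. The heat shock genes *Hspa8* and *Hsp90aa1* differed by 0.12 and -0.04.

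Transcripts of other cell types were also unequal between the members of the libraries. The filter on kept cells had capped *Cryaa* with *Cryab* and the globin genes as shares of UMIs, so lens and red cell values are a description. All 5 compared lens genes were at least 2-fold lower in DKO members, beside 1.91% of all genes. The list summed to 376 CPM in control and 87.8 CPM in DKO, against 515 and 335 CPM in hemoglobin-rich cells. *Cryaa*, an alpha crystallin, had 113 CPM (101 to 126) and 28.7 CPM (23.9 to 34.1). *Cryab* had a ratio of -1.58, but of 0.96 with cells thinned to 4000 UMIs and 0.55 in members with no *Top2a* or *Mki67* UMI. Red cell genes summed to 894 and 517 CPM, with 3 of 6 at least 2-fold lower, beside 1.91% of all genes. *Hba-a2* had 123 and 2 UMIs. In hemoglobin-rich cells *Hba-a2* had 36810 and 829 CPM, so the libraries differed in this globin in the blood as well. Endothelial and mesenchyme genes summed to 35.3 and 25.9 CPM. Macrophage genes summed to 1.49 and 19.6 CPM and none reached the level for comparison. *Gm14226*, a predicted gene on chr2:155018266-155027104, had 137 CPM (123 to 152) in control and 0 UMIs in DKO members, at most -7.66 against a floor of 3 UMIs, and it had 0 UMIs on the DKO ganglion side as well. The part of free RNA in these values was not tested.

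*Gadd45a* and *Hes6* were higher with more *Atoh7* UMIs in both libraries, and the early neuron sum differed over the bins mainly in DKO. Members thinned to 2000 UMIs were divided by their *Atoh7* UMIs into 4 bins, a description since *Atoh7* chose the cells. *Gadd45a* was at 425 CPM in the 57 control and 267 CPM in the 197 DKO members with 0 or 1 *Atoh7* UMI. It was at 1116 and 1108 CPM in the 98 and 77 members with 10 or more. *Hes6* reached 821 and 774 CPM in the highest bin. The early neuron list stayed between 6972 and 10166 CPM over the control bins. In DKO it stood at 21564 CPM in the lowest bin and 10149 CPM in the highest.

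**Figure D5:**
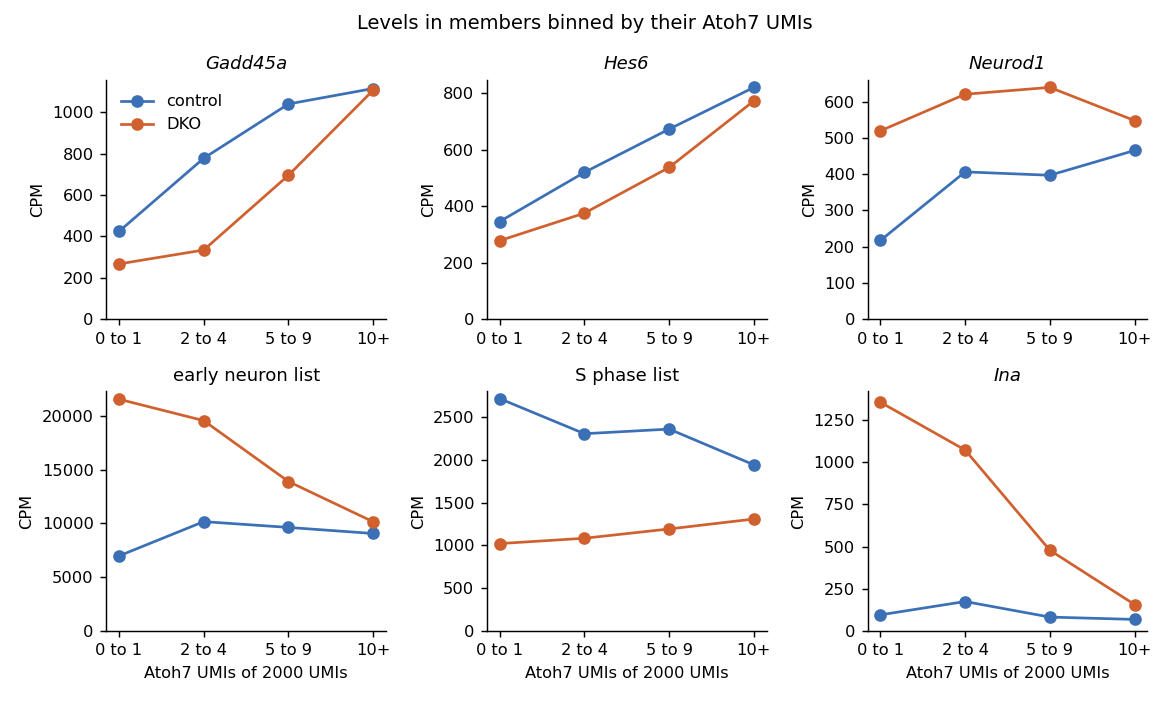
Levels in members (vertical axes, CPM) by their number of *Atoh7* UMIs among 2000 (horizontal axes), control in blue and DKO in orange, for 4 genes and 2 list sums. *Gadd45a* meets at 1116 and 1108 CPM in the highest bin, and the S phase list is lower in DKO in every bin. *Ina* runs from 1357 to 156 CPM over the DKO bins. In control it reaches at most 174 CPM and is at 67.5 CPM in the highest bin.

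The DKO members with the most *Atoh7* had levels near those of control in *Gadd45a* and *Hes6*, and an early neuron sum of 10149 CPM against 9060 CPM. They differed in the S phase sum, at 1308 CPM against 1943 CPM, and in *Sfrp2*, at 66.9 CPM against 294 CPM. *Ina* was at 156 CPM against 67.5 CPM, and *Bhlhe22* at 274 CPM against 133 CPM. *Tac1* was at 305 CPM in the lowest and 9.55 CPM in the highest DKO bin. The lowest bin held 13.3% of control and 24.1% of DKO members, and the highest 22.8% and 9.41%. *Six3* stayed between 235 and 317 CPM over all 8 bins of the 2 libraries.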

How the data were processed

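Eyecups of 1 control and 1 DKO mouse embryo were profiled by single-cell RNA-seq. The authors mapped reads to mm10 with Cell Ranger 3.1.0 and deposited integer UMI counts per gene and called cell, with no normalization. Kept cells had above 200 and under 6000 genes, 1 to 20% mitochondrial, under 20% hemoglobin and under 1% *Cryaa* and *Cryab* UMIs. Members and gene lists were chosen with earlier results of these data known. No doublet caller was run, doublets were kept, and an alternative left out the 5% of cells with the most UMIs.

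UMIs were summed over cells per library and divided by their total (CPM). Intervals were exact Poisson for levels, exact binomial (Clopper-Pearson) for shares and the exact binomial split of UMIs for ratios, at 95%, covering counting error only. Members' totals were 2692911 and 4432550 UMIs, so the floor of 3 UMIs was 1.11 and 0.677 CPM. Genes compared had at least 20 CPM in either library and 100 UMIs over both. Named genes were the rule genes, *Six3*, *Six6*, the markers, up to 6 genes a list (past 2-fold first, then by level) and the 12 highest and 12 lowest ratios, and further list members were named after their values were seen. The ratio script was tested on simulated data. Python 3.11.15, numpy 2.4.6, scipy 1.17.1, pandas 2.3.3 and matplotlib 3.10.9 were used. Gene positions are from GENCODE on GRCm38, the build of mm10, and promoter windows from RefSeq. With 1 library per genotype, a test was not made. Alternatives changed depth, each limit of the rule, the total, the weight of cells and the filter, and those on the ganglion side and the early neuron ranges were added after the data were seen. Values of some list members are not reported here.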

Additional observations from a re-analysis of the deposited data

Results flagged for a closer look

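The following 4 genes lower in DKO members were higher in DKO among cycling *Atoh7* cells of the same libraries, and the difference between the ratios was not tested. *Ccnd1* had a log2 ratio of -1.42 in members and 0.21 (0.16 to 0.26) in cycling cells. The lens genes *Cryaa*, *Crybb3* and *Cryab* had ratios of -1.98, -2.35 and -1.58 in members and of 0.42 (0.22 to 0.61), 0.36 (0.13 to 0.59) and 2.50 (2.09 to 2.92) in cycling cells. The member ratio of *Cryab* was itself above 0 in some settings, at 0.96 with cells thinned to 4000 UMIs, 0.55 with no *Top2a* or *Mki67* UMI and 0.89 in the upper range of early neuron UMIs. *Ccnd1* stood at -0.028 in that upper range. The filter on kept cells used *Cryaa* and *Cryab*.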

How the results depend on the processing

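No paired analysis was possible because there was 1 library of each genotype. Of 82 named genes past 2-fold, all kept their direction under at least 2 or at least 5 *Atoh7* UMIs, no *Isl1* or *Pou4f2* UMI, the 5% of cells with the most UMIs left out, at least 1000 genes, another total, centring and a pseudocount of 1. Thinning to 4000 UMIs kept 80, with *Pmel* at 2.75 and *Cryab* at 0.96, and no *Top2a* or *Mki67* UMI kept 81, with *Cryab* at 0.55. The share of kept cells that are members, control, was 6.995% thinned and the share of kept cells that are members, DKO, 7.55%. In the same order they were 6.97% and 9.84% with at least 2 and 5.43% and 6.20% with at least 5 *Atoh7* UMIs, 4.77% and 7.09% with no *Top2a* or *Mki67* UMI, and 4.87% and 6.73% with no *Isl1* or *Pou4f2* UMI. The counts of genes at least 2-fold higher in DKO members and of genes at least 2-fold lower in DKO members were 148 and 64 with at least 50 CPM, 1339 and 1085 with no filter, 108 and 48 with the ganglion side added, and 38 and 24 in the lower range of early neuron UMIs, where fewer genes were compared. They stood at 304 and 157 with the other total and at 275 and 98 in the upper range. With the ganglion side added, 37 of the 82 genes stayed past 2-fold, *Map1b* stood at -0.13, *Ebf1* at -0.43 and the rule gene *Crx* at 0.17. In the lower range 40 stayed past it, with *Cenpa* at 0.25, *Cenpe* at 0.33, *Ebf1* at -0.60, *Prdm1* at 0.60 and *Crabp1* at -0.041. In the upper range 66 did, with *Pmel* at 0.034 and *Cryab* at 0.89. The cause was not tested. Weighting each cell equally left 69 past 2-fold and gave no value for 2 genes. The pseudocount of 1 per 10000 shrinks ratios of low genes and left 17. Depth limits the named genes with under 10 control UMIs, whose intervals span more than 2 log2 units.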

Other observations

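Genes induced by the amino acid response, through the transcription factor ATF4, were a group that the lists above did not hold. The list was drawn up after the values had been seen, so its count is a description. Of 17 compared genes, 8 were at least 2-fold lower in DKO members and 0 higher, beside 1.91% and 4.9% of all genes, and the median ratio was -0.65. *Eif4ebp1*, an inhibitor of cap-dependent translation, had 119 CPM (106 to 133) in control and 27.1 CPM (22.4 to 32.4) in DKO. *Mthfd2*, a mitochondrial folate enzyme gene, had 168 CPM (153 to 184) and 69.7 CPM (62.2 to 77.9), and *Pck2*, a mitochondrial gene of the gluconeogenic pathway, 30.8 CPM (24.5 to 38.2) and 8.35 CPM (5.88 to 11.5). *Sesn2* belongs to this list as well. *Atf4* itself had a ratio of -0.33 (-0.44 to -0.23). Unlike the S phase and early neuron lists, whose medians came closer to 0 with the ganglion side added, this list had a median of -0.85 there, with 7 genes at least 2-fold lower. Its median was -0.81 in cycling *Atoh7* cells and -0.78 on the ganglion side.

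Genes of synapses and excitable membranes were listed after their values were seen. In DKO members 8 of 13 were at least 2-fold higher and 0 lower, beside 4.9% and 1.91% of all genes, with a median of 1.86. *Syt4*, a synaptotagmin gene, had 14.9 CPM (10.6 to 20.2) in control and 60.5 CPM (53.4 to 68.2) in DKO, and *Rab3a*, of synaptic vesicle release, 14.5 CPM (10.3 to 19.8) and 66.6 CPM (59.2 to 74.6). The median was 0.65 with the ganglion side added, with 5 genes at least 2-fold higher.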
